A study of Neurospora crassa with 16 samples.

Results

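Aminoacyl-tRNA synthetases are the enzymes that attach each amino acid to its own tRNAs, so that the ribosome can read codons as amino acids. They fall into the structural classes I and II, which share no common fold. Mitochondria translate their own messages and need charged tRNAs too, which come either from a separate nuclear gene or from a gene that serves both the cytosol and the mitochondria. The genes described here were those whose product name in the deposited table contained tRNA synthetase or tRNA ligase, which was 38 of 9730 genes. Of these, 37 were synthetase genes covering all 20 amino acids, 17 of class I and 20 of class II. The remaining gene, NCU04410, was annotated as a tRNA ligase; enzymes of that name, best known from yeast, rejoin the pieces of a tRNA after its intron has been cut out, and charge no tRNA. No product name contained the letters mitochond (0 of 38), so cytosolic and mitochondrial enzymes could not be separated by annotation.

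RNA was sequenced from mycelia of the filamentous fungus Neurospora crassa, in a strain labelled △stk-12 (below, the mutant), a deletion of a serine/threonine kinase gene, and in wild type (WT). Conidia of each strain were used to start batch cultures on Avicel, a crystalline cellulose, at 2% (w/v) in Vogel's salts, at 25 °C under constant light. Mycelia were taken at 12h, 1d, 3d and 5d, which gave the groups mutant 12h, mutant 1d, mutant 3d, mutant 5d, WT 12h, WT 1d, WT 3d and WT 5d, with 2 libraries in each of the 8 and 16 libraries in all. Whether replicates came from separate cultures is not stated in the labels. All p-values therefore rest on the spread between these libraries alone, which may be technical.

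The shallowest library (WT 1d replicate 1) had 14946389 gene reads and the deepest (mutant 12h replicate 1) 26466759. The deleted gene, stk-12, was at 9.26 to 48.0 CPM (reads relative to the library total, scaled by TMM) in the 8 mutant libraries, against 38.2 to 110 CPM in the 8 WT libraries, and at each time it was lower in the mutant (log2 fold changes of -1.39, -2.03, -1.52 and -1.21 at 12h, 1d, 3d and 5d). It was not at 0, and a count per gene does not place the remaining reads within the gene. Of the mating type gene matA-1 there were 0 reads in all mutant libraries, against 350 to 4396 reads in WT libraries. The kinase deletion and the mating type difference between the strains therefore cannot be told apart in any comparison of genotypes below.

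All 38 genes passed the filter on low counts, with 86 to 8981 reads in a library. Together they took 0.448, 0.428, 0.403 and 0.333% of gene reads in mutant libraries of 12h, 1d, 3d and 5d, and 0.428, 0.400, 0.344 and 0.308% in WT (means of 2 libraries, with SDs of 0.00221 to 0.0147 percentage points over the 8 groups). The share was lowest at 5d in both strains.

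Levels between genes were compared as the authors' RPKM, which divides by gene length and library total. By mean RPKM over the 16 libraries, the methionyl enzyme gene NCU07451 (89.9), the asparaginyl gene NCU06457 (85.5) and the seryl gene NCU01443 (84.9) were the most abundant, and the alanyl gene NCU00535 (6.76) the least. A single gene was listed for 6 amino acids, which were glycine (NCU00405), valine (un-3), cysteine (NCU05642), histidine (NCU06914), arginine (NCU08195) and glutamine (NCU07926). For 11 amino acids there were 2 genes and for 3 there were 3 genes. The valyl gene un-3 also carries the name cyt-20 and is known in Neurospora to supply both compartments. Among the amino acids with several genes, leu-6 is the cytosolic and leu-5 the mitochondrial leucyl enzyme, and cyt-18 is the mitochondrial tyrosyl enzyme, which also helps group I introns to splice in mitochondria. The mean RPKM was 41.9 for leu-6 and 14.1 for leu-5, and 42.8 for the other tyrosyl gene NCU07755 and 15.0 for cyt-18.

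Where an amino acid had several genes, the one with the highest mean RPKM is called its abundant gene below and the rest its minor genes; NCU05095 and NCU08888, the alpha and beta subunits of 1 phenylalanyl enzyme, were both counted as abundant. That gave 15 abundant genes, 16 minor genes and 6 single genes. The grouping was made after the values were seen and serves only to describe them. For most minor genes the files hold no statement of the compartment they serve. In RPKM, the abundant gene lay above the minor gene in every library in 15 of 17 pairs. The exceptions were the aspartyl gene NCU07082 and the glutamyl gene NCU11279, where the ratio of abundant to minor gene went down to 0.94 in a library.

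**Figure D1:**
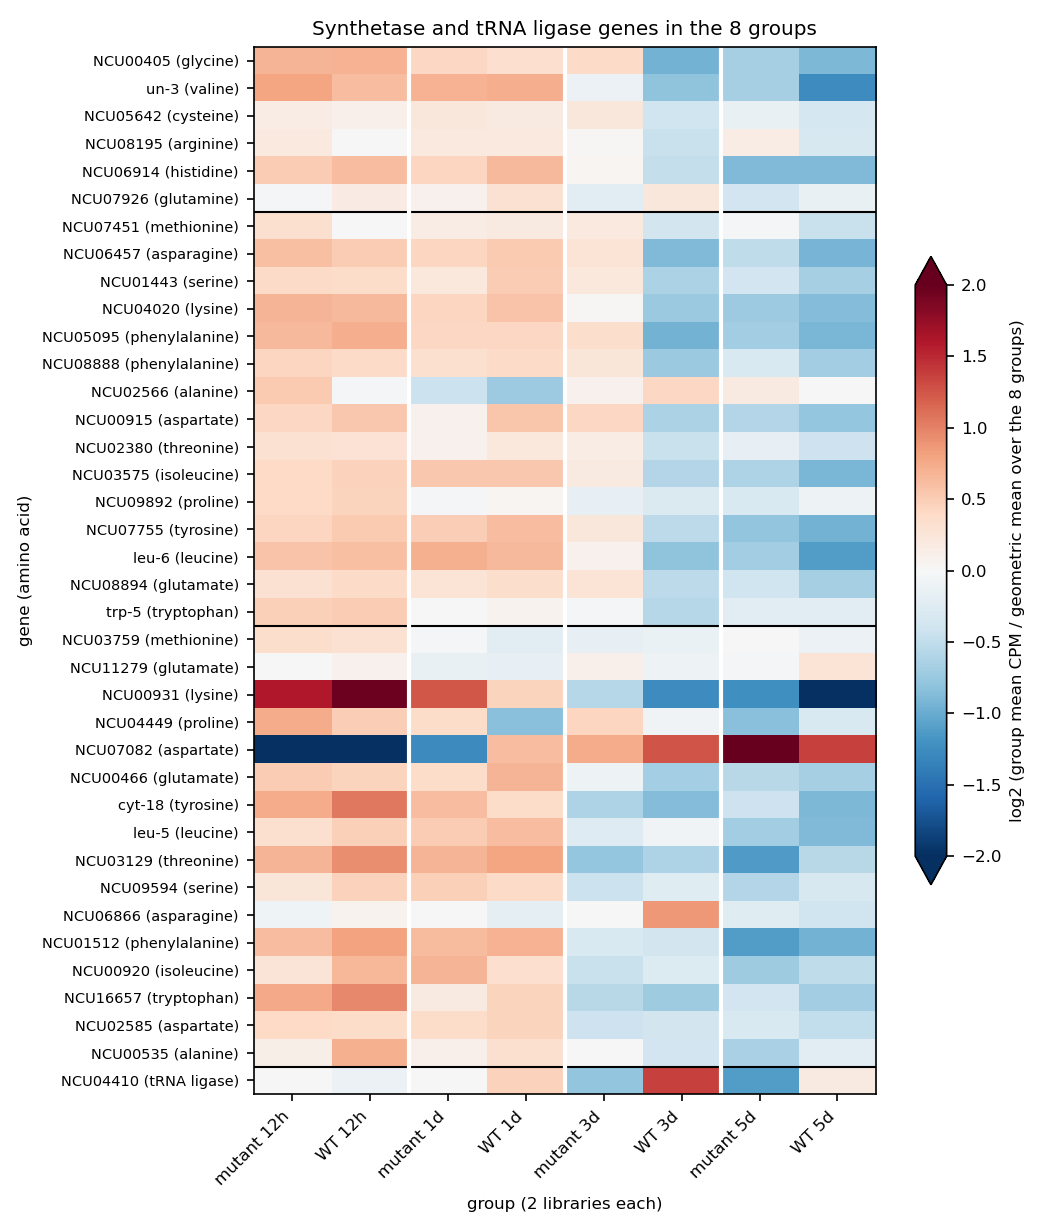
Each row is a gene and each column a group of 2 libraries, mutant left of WT at each time, and colour is the log2 ratio of the group's mean CPM to that gene's geometric mean over the 8 groups. Lines separate, from the top, the 6 single genes, the 15 abundant genes, the 16 minor genes and the tRNA ligase gene; most single and abundant genes were blue in WT at 3d while they stayed pale or red in the mutant at 3d.

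At 12h the strains differed in few of these genes. A gene is said to have risen or fallen where its edgeR quasi-likelihood test had an adjusted p under 0.05 over all 8983 genes tested. Between the strains, risen means higher in the mutant than in WT at the same time, and fallen means lower. In the mutant 2 genes rose and 2 fell, 4 of 38, while 6.53% of all genes tested rose and 6.51% fell. The main alanyl gene NCU02566 stood at 345 and 395 CPM in mutant libraries, against 252 and 250 CPM in WT libraries (log2 fold change 0.56 ± 0.0732, SE; adjusted p = 9.57e-05). Both mutant libraries lay above both WT libraries. NCU07451, the abundant methionyl gene, was at 256 and 258 CPM in the mutant and 210 and 207 CPM in WT (0.30 ± 0.0663, adjusted p = 0.00614), and this call was lost without WT 12h replicate 1 (adjusted p = 0.0517). Lower in the mutant were the minor isoleucyl gene NCU00920, with 38.3 and 38.1 CPM against 49.8 and 50.6 CPM in WT (-0.39 ± 0.0720, adjusted p = 0.00166), and the minor alanyl gene NCU00535, with 9.63 and 9.45 CPM against 13.7 and 15.2 CPM in WT (-0.60 ± 0.161, adjusted p = 0.0215). The NCU00535 call was lost when any 1 of the 4 libraries at 12h was left out (adjusted p 0.066 to 0.124). The count of 4 became 7 without mutant 12h replicate 1 and 2 without WT 12h replicate 1, so it rested on single libraries.

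At 1d, 4 genes rose in the mutant and 6 fell, 10 of 38, while 19.1% of all genes tested rose and 18.0% fell. The median log2 fold change of the 38 genes was -0.07. With library totals alone in place of TMM it was 0.09, with 10 genes higher and 3 lower, and the median of all genes was 0.18 in place of 0.02, so the direction of the family at 1d depended on the scaling. The minor prolyl gene NCU04449 rose most, with 49.8 and 44.1 CPM in the mutant against 20.5 and 20.6 CPM in WT (1.19 ± 0.128, adjusted p = 5.05e-06). Next came the minor lysyl gene NCU00931, with 86.1 and 62.8 CPM against 38.6 and 46.8 CPM in WT (0.80 ± 0.135, adjusted p = 0.000323). NCU00920 and NCU02566 also rose (0.34 ± 0.0752 and 0.30 ± 0.0749). The largest fall was in the minor aspartyl gene NCU07082, at 13.04 and 10.003 CPM in the mutant and 49.9 and 35.7 CPM in WT (-1.90 ± 0.159, adjusted p = 3.88e-07). For NCU00920 this was the opposite of its direction at 12h. Falls were also called for the abundant aspartyl gene NCU00915 (-0.47 ± 0.0751), the tRNA ligase gene NCU04410 (-0.46 ± 0.101), NCU00466 (-0.30), NCU01443 (-0.29) and NCU06914 (-0.21). Library totals alone ended the calls of NCU00466, NCU01443 and NCU06914 (adjusted p = 0.193, 0.101 and 0.62). NCU00466 also lost its call without mutant 1d replicate 1 or either WT 1d library (adjusted p 0.0538 to 0.068), and NCU06914 lost its call when any 1 of 9 libraries was left out, 6 of them from other times (adjusted p 0.0513 to 0.306), and in the fit to the 4 libraries of 1d (0.0601).

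The family separated the strains most at 3d. In the mutant 21 genes rose and 5 fell, while over all genes tested 29.4% rose and 30.0% fell. The median log2 fold change of the 38 genes was 0.51, against -0.02 for all genes tested. With library totals alone 20 rose and 11 fell and the median was 0.28 and that of all genes -0.25; a scaling moves all genes nearly alike, so it says nothing of the distance between the medians. All 26 calls held when any 1 of the 16 libraries was left out, and the only call lost under another processing was that of NCU04449 with library totals alone (adjusted p = 0.0503). In such bulk samples, fewer cells of a type and less RNA per cell cannot be told apart. Markers of conidia and conidiophores, the cells a mycelial culture also forms, moved with this comparison: 7 of 8 markers were lower in the mutant and none higher, their summed level was 456 and 474 CPM in the mutant and 2199 and 2216 CPM in WT, and none was at 0 reads. Their part in the result was not tested.

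Glycine had the highest log2 fold change of mutant over WT. NCU00405, its single gene, stood at 219 and 233 CPM in the mutant, against 94.4 and 85.3 CPM in WT (1.33 ± 0.0682 in log2 fold change, adjusted p = 5.26e-11). Both subunits of the phenylalanyl enzyme were higher in the mutant than in WT. The alpha gene NCU05095 had 186 and 190 CPM in the mutant and 80.6 and 71.5 CPM in WT (1.30 ± 0.0790). The beta gene NCU08888 had 183 and 185 CPM in the mutant and 94.7 and 91.3 CPM in WT (0.98 ± 0.0696). The abundant asparaginyl gene NCU06457 was at 250 and 255 CPM in the mutant and 119 and 107 CPM in WT (1.16 ± 0.0679, adjusted p = 2.71e-10). NCU00915, the abundant aspartyl gene, was at 223 and 228 CPM in the mutant and 115 and 103 CPM in WT (1.05 ± 0.0755, adjusted p = 3.76e-09). These 5 genes were named for the highest log2 fold changes, so the separation of their mutant and WT libraries adds nothing to the calls. The share of all genes with such separation was not counted. The valyl gene un-3 had 161 and 153 CPM in the mutant and 97.3 and 97.7 CPM in WT (0.69 ± 0.0649). The abundant tryptophanyl gene trp-5 had 82.0 and 79.6 CPM in the mutant and 56.1 and 55.5 CPM in WT (0.53 ± 0.0656).

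The higher levels in the mutant than in WT at 3d were spread over single and abundant genes and over both classes. Over time, most single and abundant genes fell in WT from 1d to 3d, and fewer did in the mutant. Of the 21 single or abundant genes, 18 rose and 2 fell (median 0.75), and the counts were the same with library totals alone. The 18 log2 fold changes ran from 0.47 (the arginyl gene NCU08195) to 1.33. Of the 16 minor genes, 3 rose and 2 fell (median 0.02); with library totals alone 2 rose and 8 fell. The minor genes were also measured less finely, with a median SE of 0.11, against 0.07 for the single and abundant genes. By class, 10 of 17 genes of class I rose and 1 fell, and 11 of 20 of class II rose and 3 fell. The difference between abundant and minor genes as groups was not tested.

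**Figure D2:**
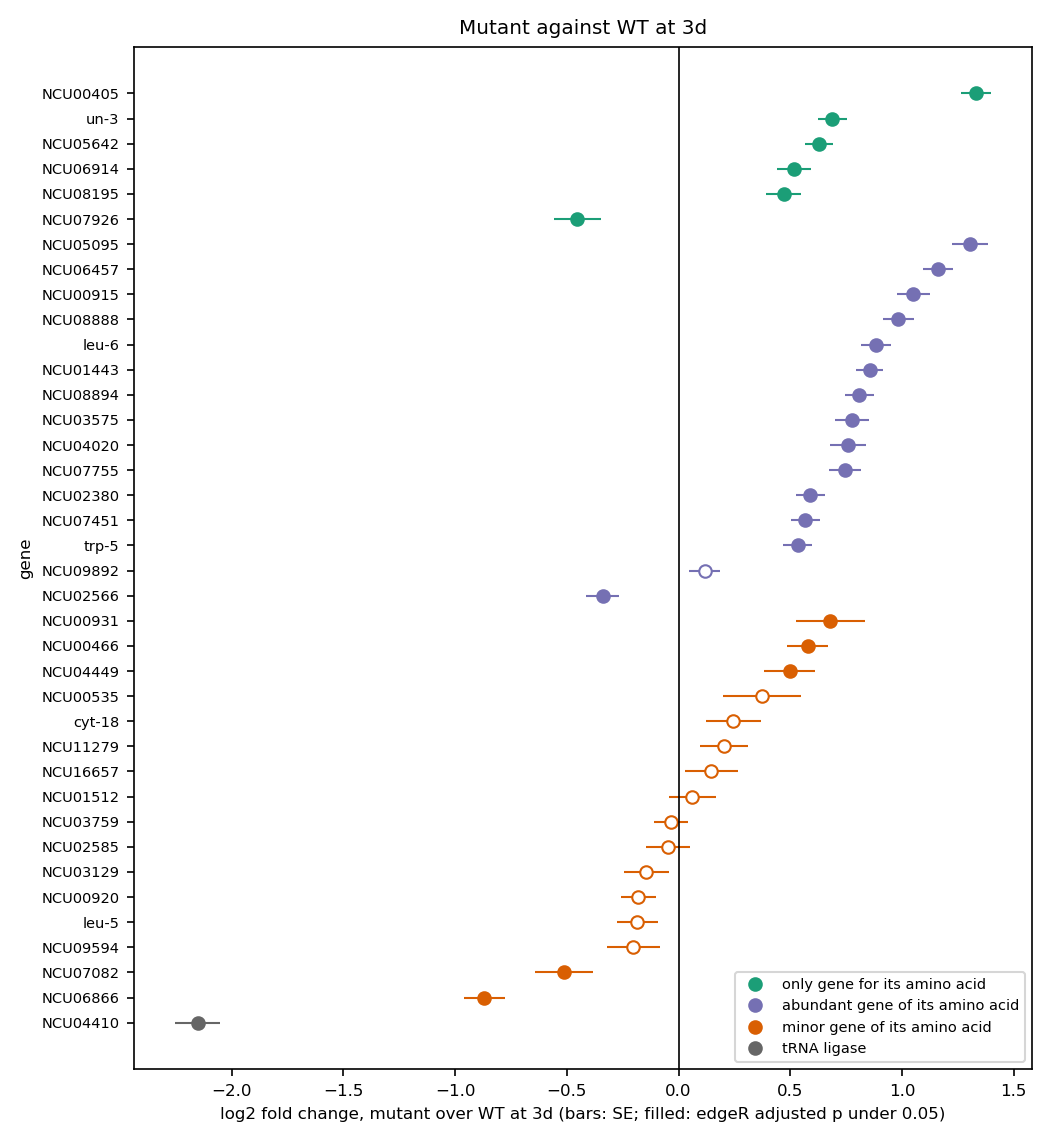
Points give the log2 fold change of mutant over WT at 3d for each of the 38 genes, bars are ± 1 SE, and filled points passed the edgeR test at an adjusted p under 0.05. Green points are single genes, purple abundant genes, orange minor genes and grey the tRNA ligase gene; 18 of the 21 green and purple points are filled and right of 0, while the orange points spread on both sides of 0.

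Single and abundant genes that did not follow the others at 3d were few. The glutaminyl gene NCU07926 fell, with 71.1 and 65.4 CPM in the mutant against 98.9 and 87.8 CPM in WT (-0.45 ± 0.104, adjusted p = 0.00136). The main alanyl gene NCU02566 was also lower in the mutant, at 262 and 280 CPM against 347 and 340 CPM in WT (-0.34 ± 0.0731, adjusted p = 0.000771). The abundant prolyl gene NCU09892 did not pass (0.12 ± 0.0694, adjusted p = 0.154). Among the minor genes NCU00931 for lysine (0.68 ± 0.153), NCU00466 for glutamate (0.58 ± 0.0922) and NCU04449 for proline (0.50 ± 0.115) rose, and NCU06866 for asparagine (-0.87 ± 0.0900) and NCU07082 for aspartate (-0.51 ± 0.129) fell.

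Genes for the same amino acid could thus differ within a library, where scaling plays no part. The genes of the following pairs were picked after their values were seen. For leucine, leu-6 had 170 and 179 CPM in the mutant and 94.8 and 94.2 CPM in WT at 3d (0.88 ± 0.0669, adjusted p = 7.48e-09), whereas leu-5 had 38.5 and 38.2 CPM in the mutant and 46.5 and 40.6 CPM in WT (-0.18 ± 0.0910, adjusted p = 0.0936). The RPKM of leu-6 was 3.64 times that of leu-5 in the mutant at 3d and 1.75 times in WT at 3d. For tyrosine, NCU07755 rose, with 103 and 111 CPM in the mutant against 66.8 and 60.9 CPM in WT (0.75 ± 0.0718), while cyt-18, with 23.3 and 27.5 CPM in the mutant and 21.4 and 21.5 CPM in WT, did not pass (0.24 ± 0.124, adjusted p = 0.1). For serine, NCU01443 rose (0.85 ± 0.0619) and NCU09594 did not pass (-0.20 ± 0.118, adjusted p = 0.15). For asparagine the genes moved in opposite directions: the RPKM of NCU06457 was 9.00 times that of NCU06866 in the mutant and 2.21 times in WT. Over the 17 pairs of an abundant and a minor gene, the ratio was larger in the mutant than in WT in 15 pairs at 3d, against 13 pairs at 12h, 6 at 1d and 13 at 5d. Pairs that share a gene are not independent, and the ratios were not tested.

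**Figure D3:**
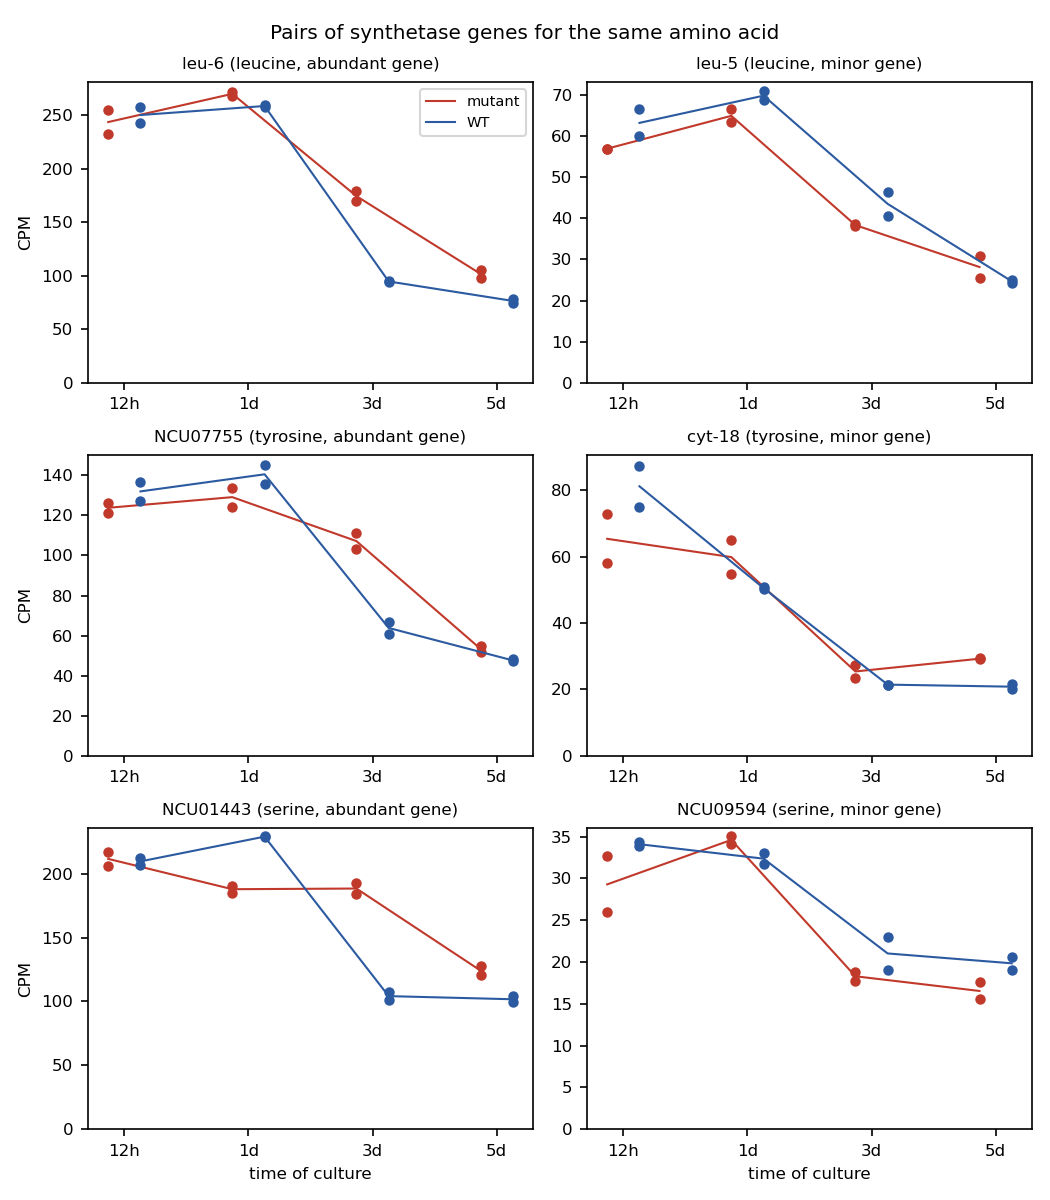
Dots are the CPM of single libraries and lines join group means, for the abundant gene (left) and the minor gene (right) of leucine, tyrosine and serine from 12h to 5d; the mutant is red and drawn left of WT in blue, and the vertical scales differ. At 3d the mutant dots lie above the WT dots for leu-6, NCU07755 and NCU01443 but not for leu-5 or NCU09594, and for cyt-18 they lie just above.

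At 5d the difference was smaller for most genes. In the mutant 19 genes rose and 6 fell, 25 of 38, while 30.6% of all genes tested rose and 30.9% fell, and the median was 0.19, against -0.01 for all genes. With library totals alone 12 rose and 9 fell and the median was 0.09, with -0.11 for all genes. Of the 21 genes that were higher at 3d, 15 were also higher at 5d, while 13.8% of all genes tested were higher at both times. The calls at 5d rested more on single libraries: 15 of the 25 held without each library in turn and 14 in every alternative. The summed conidial markers were at 1739 and 1672 CPM in the mutant and 1480 and 972 CPM in WT, with 2 of 8 higher and 5 lower. Most of the mutant sum was 1 of the higher markers, con-8, at 1528 and 1449 CPM against 525 and 374 CPM in WT. The part of the markers in the result was not tested.

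Among the calls at 5d that held in every alternative, NCU07082 for aspartate rose most, with 135 and 152 CPM in the mutant against 72.6 and 70.9 CPM in WT (1.00 ± 0.125, adjusted p = 4.01e-06). NCU00931 for lysine followed, with 13.03 and 13.8 CPM in the mutant and 6.57 and 7.37 CPM in WT (0.95 ± 0.177), and then un-3 with 104 and 110 CPM in the mutant and 68.4 and 74.3 CPM in WT (0.58 ± 0.0661). Mutant libraries lay above WT libraries in each, which the choice of genes by log2 fold change makes likely. The share of all genes with such separation was not counted. The mitochondrial tyrosyl gene cyt-18 was at 29.1 and 29.4 CPM in the mutant and 20.1 and 21.6 CPM in WT (0.49 ± 0.124, adjusted p = 0.00278), and NCU08195 for arginine at 132 and 144 CPM in the mutant and 95.9 and 102 CPM in WT (0.48 ± 0.0779). The minor threonyl gene NCU03129 fell, with 11.5 and 11.1 CPM in the mutant against 16.8 and 16.9 CPM in WT (-0.58 ± 0.105, adjusted p = 0.000172). NCU04449 for proline, higher in the mutant at 1d and 3d, was lower at 5d, with 18.0 and 23.0 CPM against 25.6 and 33.3 CPM in WT (-0.52 ± 0.123, adjusted p = 0.00176). The glycyl gene NCU00405, first at 3d, was at 110 and 110 CPM in the mutant and 89.4 and 97.5 CPM in WT at 5d (0.23 ± 0.0682), a call lost without WT 5d replicate 1 (adjusted p = 0.0775) and with library totals alone (0.112).

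Over the whole course 5 of the 38 genes were called between the strains at no time, while 12.2% of all genes tested were, and 12 were called at 12h or 1d, while 43.3% of all genes tested were. By the edgeR test of a single genotype difference shared by the 4 times, equality was rejected for 32 of 38 genes, against 77.5% of all genes tested.

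Within each strain the family took a smaller share of gene reads at 3d and 5d than at 12h. From 12h to 1d the mutant had 2 genes higher and 14 lower at 1d (21.4% and 19.3% of all genes), and WT had 4 higher and 12 lower (26.1% and 30.7% of all genes). The number lower in WT was near the share of all genes. With 1 library left out, the WT median ran from -0.07 to -0.01, against -0.06 for all genes in the full fit. The mutant split turned to 7 higher and 6 lower with library totals alone, and its count of 16 fell to 9 without mutant 1d replicate 2. The direction in the mutant thus depended on the scaling. From 1d to 3d WT lost most of the family: 30 genes fell and 5 rose, while over all genes 37.1% fell and 41.9% rose, and the median was -0.85 against 0.11 for all genes. With library totals alone 21 fell and 9 rose, with a median of -0.36 against 0.59 for all genes. In the mutant the same step gave 18 lower and 4 higher genes (37.0% and 35.6% of all genes) and a median of -0.16. Its larger fall came at the next step, with 27 genes lower and 1 higher at 5d against 3d (31.2% and 31.7% of all genes) and a median of -0.41, or 20 lower and 7 higher with library totals alone. The conidial markers also moved in that mutant step, 4 of 8 higher and 2 lower, with sums of 1739 and 1672 CPM at 5d against 456 and 474 CPM at 3d. Most of the sum at 5d was the marker con-8, at 1528 and 1449 CPM, against 247 and 255 CPM at 3d. The marker eas was among those lower, at 1.88 and 3.58 CPM at 5d against 20.9 and 25.4 CPM at 3d. The part of the markers in that step was not tested. In WT that step gave 13 lower and 3 higher (27.5% and 27.1% of all genes) and a median of -0.08.

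The single and abundant genes fell at different steps in the strains. Of these 21 genes, 19 fell in WT from 1d to 3d (median -1.13) and 7 in the mutant (median -0.08), while 37.1% and 37.0% of all genes fell. From 3d to 5d 17 fell in the mutant (median -0.60) and 7 in WT (median -0.07), while 31.2% and 27.5% of all genes fell. Both counts of 7 were near the share of all genes. Of the 16 minor genes, 11 fell in WT from 1d to 3d (median -0.68) and 10 in the mutant (median -0.75). The minor aspartyl gene NCU07082 rose in both strains over that step. Of the 38 genes, 24 were lower both in WT at 3d against 1d and in the mutant at 5d against 3d, while 19.4% of all genes tested were. Of the 21 that were higher in the mutant at 3d, 20 had fallen in WT from 1d to 3d and 20 fell in the mutant from 3d to 5d, pairs of calls met by 18.8% and 16.7% of all genes tested. The first of these overlaps shares WT 3d with the comparison of genotypes and the second shares mutant 3d, so neither is independent of it. The valyl gene un-3 had the steepest fall in WT among the single and abundant genes, to 97.3 and 97.7 CPM at 3d against 289 and 273 CPM at 1d (-1.53 ± 0.0657, adjusted p = 2.13e-12). In the mutant it was at 161 and 153 CPM at 3d against 275 and 276 CPM at 1d (-0.81 ± 0.0642). NCU00405 showed the contrast most plainly: in the mutant it had 233 and 228 CPM at 1d, 219 and 233 at 3d and 110 and 110 at 5d, and in WT 215 and 225 CPM at 1d, 94.4 and 85.3 at 3d and 89.4 and 97.5 at 5d. The WT step in which the family fell was also the one in which the conidial markers rose, 7 of 8, to sums of 2199 and 2216 CPM at 3d against 213 and 180 CPM at 1d; their part in it was not tested.

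A few genes kept courses of their own. As a description over the 16 libraries, which share depth and scaling, the log2 CPM of each gene was correlated with the median of the other 37 genes; Pearson's r was -0.81 for NCU07082, -0.21 for NCU02566, -0.17 for NCU11279, -0.06 for NCU06866 and 0.08 for NCU04410, and 0.37 to 0.91 for the remaining genes, with NCU01512, the phenylalanyl gene not annotated as a subunit, at the top.

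The tRNA ligase gene NCU04410 had the largest genotype difference of the 38. It stood at 89.1 and 77.4, 77.8 and 87.8, 47.5 and 48.7, and 38.2 and 38.2 CPM in mutant libraries of 12h, 1d, 3d and 5d. In WT libraries it stood at 74.1 and 77.9, 122 and 106, 207 and 221, and 84.1 and 104 CPM. It thus peaked at 3d in WT and was lower at 3d and 5d than before in the mutant. Mutant over WT, it did not pass at 12h (log2 fold change 0.13 ± 0.0997, adjusted p = 0.429). It fell at 1d (-0.46 ± 0.101), at 3d (-2.15 ± 0.103, adjusted p = 2.21e-11) and at 5d (-1.30 ± 0.104, adjusted p = 2.19e-08). In yeast the tRNA ligase also joins the spliced HAC1 message of the unfolded protein response. In WT the rise from 1d to 3d was 0.91 ± 0.0986 and the fall from 3d to 5d was -1.18 ± 0.0984.

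NCU07082, annotated as an aspartyl enzyme, rose with time while the family fell. It was at 4.23 and 5.27, 13.04 and 10.003, 48.4 and 44.8, and 135 and 152 CPM in mutant libraries over the 4 times. In WT libraries it was at 4.09 and 5.52, 49.9 and 35.7, 66.7 and 66.4, and 72.6 and 70.9 CPM. WT rose first, by 3.15 ± 0.174 (log2) from 12h to 1d, against 1.27 ± 0.195 in the mutant. The mutant then rose by 2.02 ± 0.155 to 3d and 1.62 ± 0.128 to 5d, against 0.64 ± 0.134 and 0.11 ± 0.127 (adjusted p = 0.486) in WT. The sign of the genotype difference therefore turned, with log2 fold changes of -0.02, -1.90, -0.51 and 1.00. At 12h the RPKM of the abundant aspartyl gene NCU00915 was 57.7 times that of NCU07082 in the mutant and 62.6 times in WT, and at 5d 0.95 and 1.65 times.

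The main alanyl gene NCU02566 dipped at 1d in both strains. It was at 345 and 395, 184 and 196, 262 and 280, and 286 and 294 CPM in mutant libraries. In WT libraries it was at 252 and 250, 154 and 155, 347 and 340, and 268 and 244 CPM. From 1d to 3d it rose by 0.51 ± 0.0739 in the mutant and by 1.15 ± 0.0749 in WT, where most of the family fell. The minor asparaginyl gene NCU06866 was nearly level in the mutant, with 39.8 and 37.5, 41.3 and 40.1, 39.6 and 42.2, and 35.2 and 34.3 CPM. In WT it stood at 43.3 and 43.2, 37.7 and 33.7, 70.9 and 78.5, and 34.1 and 27.8 CPM, so that only WT 3d stood apart. The minor lysyl gene NCU00931 fell steeply, to 13.03 and 13.8 CPM at 5d against 106 and 85.4 CPM at 12h in the mutant, and to 6.57 and 7.37 CPM against 123 and 122 CPM in WT. WT fell early, by 1.52 on the log2 scale from 12h to 1d, where the mutant fell by 0.36. That mutant call was lost without mutant 12h replicate 1 or mutant 1d replicate 2 (adjusted p = 0.308 and 0.364) and with library totals alone (0.102). The abundant lysyl gene NCU04020, chosen after its values were seen, was at 119 and 126 CPM in the mutant and 106 and 114 CPM in WT at 5d.

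**Figure D4:**
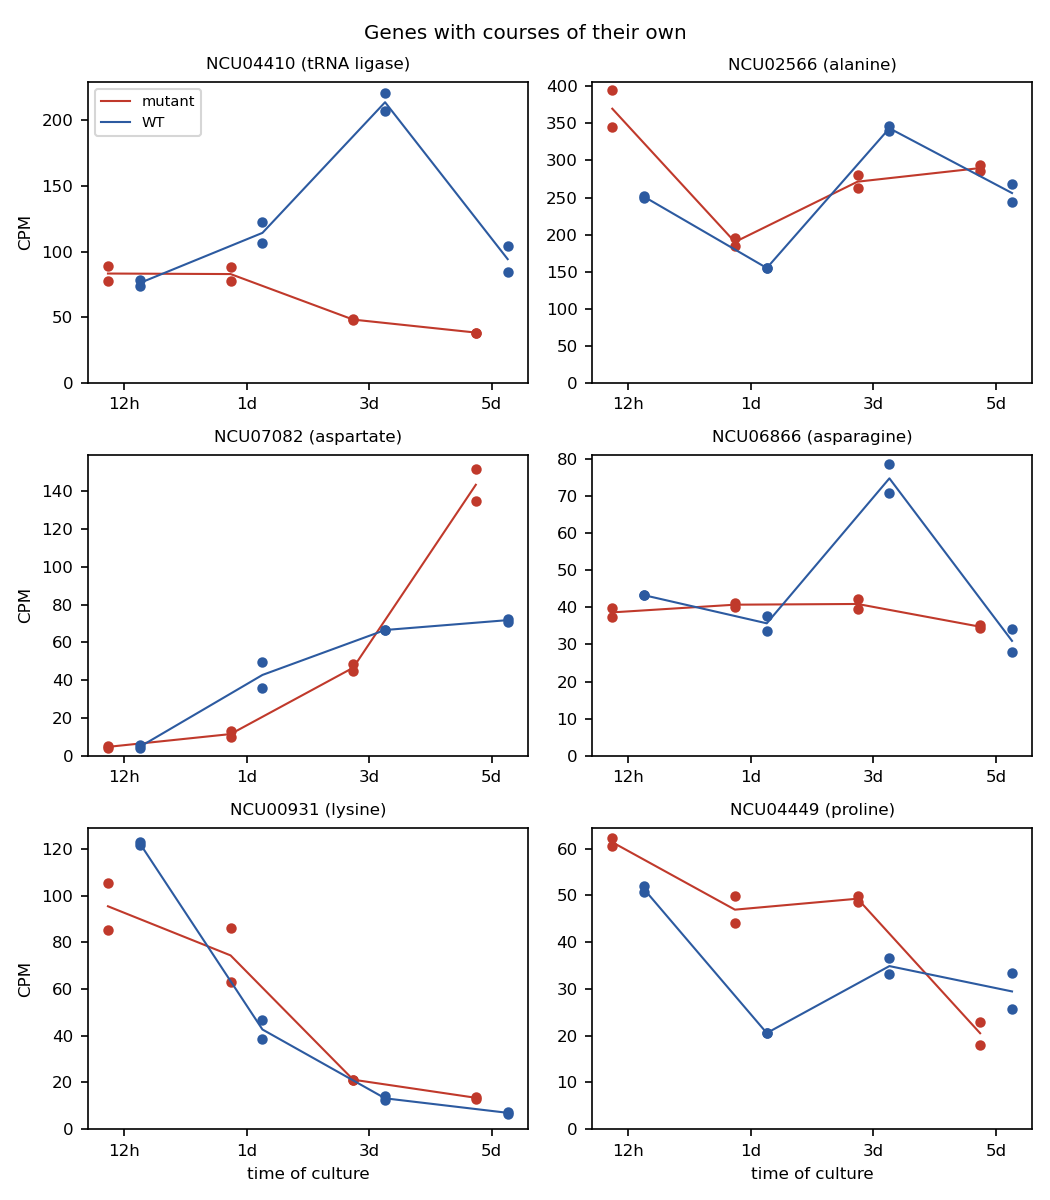
Dots are the CPM of single libraries and lines join group means from 12h to 5d for 6 genes, mutant in red and left of WT in blue; the vertical scales differ. NCU04410 and NCU06866 have a peak at WT 3d alone, NCU07082 climbs at each time and ends higher in the mutant, and NCU00931 falls throughout in both strains.

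Other genes of protein synthesis were set beside the family at 3d, where 29.4% of all genes tested rose and 30.0% fell. Of 91 genes with a crp symbol or a 40S or 60S ribosomal protein as product, 83 rose in the mutant and 3 fell (median log2 fold change 0.57). Of these, 11 carry an mrp symbol, used for mitochondrial ribosomal proteins; the 80 without one split 76 higher to 2 lower (median 0.59) and the 11 with one 7 to 1 (0.36). Of 28 translation initiation factor genes 18 rose and 2 fell (0.26), of 10 elongation factor genes 5 rose and none fell (0.29), and of 14 genes with mitochondrial ribosomal protein in the product name 8 rose and none fell (0.27). With library totals alone the initiation factors split 9 higher to 6 lower, the elongation factors 4 to 3, the 14 mitochondrial ribosomal proteins 6 to 1 and the 91 crp, 40S or 60S genes 77 to 5. A gene annotated as initiation factor 4E (NCU03717), a factor that binds the cap of messages, rose by 1.15 ± 0.0885. The genes eif4E (NCU02076) and NCU09546 are also annotated as 4E factors, and their values are not given here. Elongation factor Tu (NCU03737), known in bacteria and mitochondria to deliver charged tRNAs to the ribosome, rose by 0.96 ± 0.0927. At 1d, 60 of the 80 without an mrp symbol were lower in the mutant and 1 higher, while 18.0% of all genes were lower and 19.1% higher. With library totals alone 16 were lower and 2 higher, so the size of that fall depended on the scaling.

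Other tRNA genes, those with tRNA in the product name such as modification and splicing enzymes, gave no common direction at 3d. Of 33, 6 rose and 8 fell (29.4% and 30.0% of all genes, median 0.00), and 1 rose and 15 fell with library totals alone. Among them a tRNA-splicing endonuclease gene, NCU02036, which cuts out tRNA introns, fell by 1.37 on the log2 scale (-1.37 ± 0.129, adjusted p = 1.2e-07). NCU06254, annotated as the splicing phosphotransferase that acts after ligation, fell by 0.78 (-0.78 ± 0.124). Both were named after their values were seen, as were the factors above. The endonuclease subunit genes tsp-2 (NCU01115) and tsp-4 (NCU08032) are also in the list, and their values are not given here. These 2 genes therefore do not speak for tRNA splicing as a whole. NCU09102, annotated as subunit A of the amidotransferase that makes glutaminyl-tRNA from glutamyl-tRNA in organelles, rose by 0.94 ± 0.110. It too was picked after its value was seen. NCU08719 is annotated as the same subunit, and NCU00660 and NCU09025 as amidotransferases. Their values are not given here.

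A further list held genes whose symbol names an amino acid or its pathway, such as arg or his with a number. Most encode enzymes of amino acid synthesis, but sulfate permeases, the regulator cys-3, an ornithine carrier, a thioredoxin-disulfide reductase and a gene annotated as a DNA repair helicase are also in it. Of 78, 60 rose and 5 fell in the mutant at 3d (median 0.70, or 50 and 11 with library totals alone), while 29.4% and 30.0% of all genes did. At 5d 25 rose and 31 fell (median 0.02), near the 30.6% and 30.9% of all genes. In WT 71 of them fell from 1d to 3d (37.1% of all genes). In the mutant 69 fell over the same step (37.0% of all genes) and 65 from 3d to 5d (31.2% of all genes). Counts of these steps with library totals alone are not given here. The regulators of cross-pathway control, the response to a shortage of amino acids, were also read. cpc-1, the Neurospora counterpart of the yeast activator Gcn4, was at 1468 and 1589, 1715 and 1476, 1855 and 1677, and 714 and 760 CPM in mutant libraries over the 4 times. In WT libraries it was at 1453 and 1249, 1057 and 1042, 1208 and 1179, and 1153 and 1318 CPM. It was higher in the mutant at 1d (0.60) and 3d (0.57), lower at 5d (-0.75) and did not pass at 12h (0.18). cpc-3, the counterpart of the kinase Gcn2 that senses uncharged tRNA, differed by 0.25 at 1d (adjusted p = 0.0419) and 0.24 at 5d (adjusted p = 0.0214), and by 0.10 and 0.04 at 12h and 3d, where it did not pass.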

How the data were processed

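Each library's deposited table held, per the file headers, raw read counts per gene and RPKM values. The aligner TopHat2 (2.0.8b) and the counter HTSeq (0.5.4p3) are named per the submitters' processing notes; the genome build and the strand setting are not given in the sources used here, so values of overlapping, antisense and near-identical genes are uncertain. The RPKM values deposited by the authors equalled count divided by gene length and library total in 146267 of 146267 values above 0 (100%, relative tolerance 0.001) and served only to compare levels between genes. Entries naming no gene, in 2 libraries only (4.43% of the reads of mutant 5d replicate 1 and 6.86% of those of WT 3d replicate 2), were left out. Symbols came from the deposited table and a RefSeq gene table (assembly NC12), which held 9729 of the 9730 gene IDs; 5 of the 38 genes had a symbol.

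The counts were tested with edgeR (4.0.16) in R (4.3.3): filterByExpr over the 8 groups left 8983 genes and removed 747, TMM scaling was applied (factors 0.840 to 1.25), and all 16 libraries entered 1 quasi-likelihood model with a mean for each group (8 residual degrees of freedom, common biological coefficient of variation 0.0685). Benjamini-Hochberg adjustment ran over every gene tested, and the threshold was 0.05. Log2 fold changes set mutant over WT or the later over the earlier time, and their SE is the absolute log2 fold change over the square root of F. The procedure was also run on simulated counts with known changes, and its recovery of them is not given here. Replicates differed beyond sampling noise (chi-square per degree of freedom 3.91 to 22.1), so each counted once. The replicate numbers did not pair samples.

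Alternatives were DESeq2 (1.42.0), its size factors, library totals alone, no filter, a replicate block, the 4 libraries of a comparison, and leaving out each library. Genes were named by rule: in each comparison of genotypes the 5 called members with the highest and the 5 with the lowest log2 fold change, in each step in time the 2 highest and 2 lowest, the 3 with the highest mean RPKM, cpc-1, cpc-3 and stk-12; other genes are named as chosen after their values were seen, or only to list single genes and pairs. The members and gene lists were chosen with earlier results of these data known. Tables and plots were made with pandas (2.3.3), NumPy (2.4.6) and matplotlib (3.10.9) in Python (3.11.15).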

Additional observations from a re-analysis of the deposited data

Results flagged for a closer look

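The genotype difference was not the same at the 4 times for 32 of the 38 genes, by the edgeR test of the difference between times itself, a rule met by 77.5% of all genes tested. No group had enough libraries for a test of single outlying samples.

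The adjusted p of this test was smallest for NCU04410, the tRNA ligase gene (4.68e-09), lower in the mutant from 1d on. Among genes that were called higher in the mutant at one time and lower at another, 8 of the 38, while 27.1% of all genes tested were, it was 2.27e-08 for NCU00915, 3.38e-08 for NCU07082, 7.38e-08 for NCU01443, 3.76e-06 for NCU04449, 9.87e-06 for NCU02566, 8.41e-05 for NCU00920, 8.87e-05 for NCU06914 and 0.000143 for NCU00466. The calls at 1d of NCU01443, NCU06914 and NCU00466 were lost with library totals alone. For the remaining genes that rose at 3d it was 9.18e-09 for NCU00405, 4.23e-08 for NCU06457, 4.67e-08 for NCU05095, 3.62e-07 for NCU08888, 6.56e-07 for NCU08894, 1.04e-06 for leu-6, 3.63e-06 for NCU07755, 8.17e-06 for un-3, 1.33e-05 for NCU03575, 1.92e-05 for NCU04020, 2.19e-05 for NCU02380, 4.81e-05 for NCU00931, 5.04e-05 for NCU05642, 5.37e-05 for trp-5, 0.000209 for NCU07451 and 0.00227 for NCU08195. NCU06866 had 6.38e-06 and cyt-18 0.00213. The least firm were NCU00535 (0.00968), NCU16657 (0.0103), NCU03129 (0.0301), NCU11279 (0.0394) and NCU09892 (0.0451).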

How the results depend on the processing

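Of the 198 calls of members in the 10 comparisons, 147 held in every alternative and 37 were lost without at least 1 library. Library totals alone ended 36, the fit to 4 libraries 11, DESeq2 6, the replicate block 3, DESeq2 size factors 2 and the fit without a filter 1. The only call that reversed was that of NCU09892 in WT at 3d against 1d, which was -0.32 with TMM and 0.17 (adjusted p = 0.041) with library totals alone, a scaling that moves the median of all genes in that step to 0.59. No alternative that kept all libraries changed a count of called members by over 1.5 times. Among those that left one out, the 4 calls at 12h became 7 without mutant 12h replicate 1 and 2 without WT 12h replicate 1, and the 16 in the mutant step to 1d became 9 without mutant 1d replicate 2.

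With library totals alone the median log2 fold change of the 38 genes was -0.0030, 0.087, 0.28 and 0.089 for mutant over WT in order of time, -0.0086, -0.055 and -0.23 in the mutant steps to 1d, 3d and 5d, and -0.36 and -0.024 in the WT steps to 3d and 5d.

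Leaving out 1 library, the number of genes called in the mutant against WT ran, in order of time, from 2 to 7, 8 to 11, 26 to 27 and 19 to 25; in the mutant steps from 9 to 17, 20 to 24 and 24 to 30; in the WT steps from 13 to 18, 34 to 35 and 13 to 16; and for equality over times from 29 to 32. The medians ran from -0.06 to -0.03, -0.09 to -0.03, 0.47 to 0.57 and 0.14 to 0.25 against WT, from -0.14 to -0.038, -0.23 to -0.14 and -0.48 to -0.36 in the mutant steps, and from -0.07 to -0.01, -0.92 to -0.85 and -0.12 to -0.036 in the WT steps. Over all genes, the 1172 calls at 12h became 541 without mutant 12h replicate 2 and 463 without WT 12h replicate 1, and the 3337 at 1d became 2176 without mutant 1d replicate 1 and 2100 without WT 1d replicate 1.

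Same-numbered replicates deviated together in 0 of 28 pairs of groups (correlations of deviations -0.145 to 0.0891), so the numbers were not taken as pairs. The fit with the replicate block called 4, 10, 26 and 24 members against WT in order of time, 15, 21 and 28 in the mutant steps, 17, 35 and 16 in the WT steps and 31 for equality over times. With 2 libraries a group, low counts limit the minor genes most. The lowest count, 86 reads, was that of NCU07082 in WT 12h replicate 1. That library had 25027909 gene reads, so the count was a low level of the gene there and not a shallow library.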
